A study of Mus musculus with 9 samples.

Results

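The 10 genes described here encode the AP-1 and EGR transcription factors. They were chosen by symbol, from 48587 genes listed in the count table with the spike-in controls left out. The members were Fos, Fosb, Fosl1 and Fosl2 of the FOS family, Jun, Junb and Jund of the JUN family, and Egr1, Egr2 and Egr3 of the EGR family. Each symbol had its own entry in the table. Poly-A RNA was sequenced from whole retinas of C57BL/6J mice aged 12 weeks. Mice in the laser groups were anaesthetised and injected with eosin Y, a photosensitiser, at 200 mg/kg before treatment with a 50 mW laser. In RVO eyes (retinal vein occlusion) every large vein was lasered, and in control eyes, the fellow eyes of the same mice, an equal number of laser spots was placed between the large vessels. Laser-treated retinas were taken at day 2, and untreated eyes came from other mice without laser. Each of the 3 groups held 3 pools, made of 6 retinas apiece. No cell type was separated, and the pools do not show how single mice varied. Mice of all groups, the untreated ones included, went through fundus imaging and rhodamine B angiography before the retinas were taken. Whether untreated mice had eosin Y or the anaesthesia of the laser session is not given in the sources used here, so the effects of the laser light and of the rest of that session cannot be told apart.

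Total counts were 21022997 to 28993921 in RVO pools, 18897218 to 23419497 in control pools and 12377572 to 15245869 in untreated pools. Levels are given as CPM, the counts of a gene scaled to one common library size after TMM adjustment. All 9 rod markers examined were detected in each pool, as a check of the retinal label. The summed rod marker level was 87572 to 89492 CPM in untreated, 57249 to 69848 CPM in control and 47007 to 50966 CPM in RVO pools. In such bulk samples, fewer cells of a type and less RNA per cell cannot be told apart. RVO replicate 2 stood apart from the other RVO pools. Its lens markers summed to 3860 CPM against 94.8 and 382 CPM, its ganglion cell markers to 507 CPM against 217 and 282 CPM, and its neutrophil markers to 35.6 CPM against 83.3 and 87.0 CPM.

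AP-1 is a dimer of basic leucine zipper proteins, in which a FOS protein pairs with a JUN protein or 2 JUN proteins pair with each other. The dimers bind short palindromic DNA elements. The EGR proteins are zinc finger factors that bind a GC-rich element. Many of these genes are immediate-early genes, whose transcription starts within minutes of a growth factor, cytokine, stress or depolarisation signal because the factors that induce them are already present in the cell. Serum response factor with its ternary complex partners, and CREB, act on several of their promoters. In the retina these genes are known to respond to light, injury and ischaemia in neurons and in Mueller glia.

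The promoters of the members are shown because these short elements are where the inducing signals arrive. The RefSeq promoter table (build GRCm38.p6) had an entry for Fos, Fosb, Fosl2, Jun, Junb, Jund and Egr2, which is 7 of the 10 members. For Fosl1, Egr1 and Egr3 it had none. The windows of Fosl2 and Jund start at transcription starts 671 and 1210 bases away from the principal start in the annotation and are not printed. The other 5 windows cover the 250 bases before the start, 5′ to 3′ on the strand of the gene, and lie at chr12:85473640-85473889 on the plus strand (Fos), chr7:19310046-19310295 on the minus strand (Fosb), chr4:95052223-95052472 on the minus strand (Jun), chr8:84978749-84978998 on the minus strand (Junb) and chr10:67537619-67537868 on the plus strand (Egr2). Capitals mark the motif matches.
Fos: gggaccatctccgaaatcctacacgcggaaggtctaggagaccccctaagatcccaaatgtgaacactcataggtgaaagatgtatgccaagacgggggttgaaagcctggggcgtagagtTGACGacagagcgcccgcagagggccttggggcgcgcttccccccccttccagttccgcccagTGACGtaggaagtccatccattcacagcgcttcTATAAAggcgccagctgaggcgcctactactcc
Fosb: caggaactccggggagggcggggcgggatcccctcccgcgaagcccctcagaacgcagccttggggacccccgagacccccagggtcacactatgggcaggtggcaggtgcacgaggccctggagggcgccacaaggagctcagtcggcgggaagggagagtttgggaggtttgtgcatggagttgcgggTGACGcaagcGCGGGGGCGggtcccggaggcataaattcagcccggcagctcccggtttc
Jun: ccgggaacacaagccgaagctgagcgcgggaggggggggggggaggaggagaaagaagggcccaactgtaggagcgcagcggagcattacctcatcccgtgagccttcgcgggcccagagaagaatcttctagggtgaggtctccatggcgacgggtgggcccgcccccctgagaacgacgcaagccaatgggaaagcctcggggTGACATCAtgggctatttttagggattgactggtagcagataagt
Junb: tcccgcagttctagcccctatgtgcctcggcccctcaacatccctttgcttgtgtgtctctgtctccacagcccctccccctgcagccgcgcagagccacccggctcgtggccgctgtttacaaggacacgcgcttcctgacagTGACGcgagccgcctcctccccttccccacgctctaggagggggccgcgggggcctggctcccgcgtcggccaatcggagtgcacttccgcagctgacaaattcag
Egr2: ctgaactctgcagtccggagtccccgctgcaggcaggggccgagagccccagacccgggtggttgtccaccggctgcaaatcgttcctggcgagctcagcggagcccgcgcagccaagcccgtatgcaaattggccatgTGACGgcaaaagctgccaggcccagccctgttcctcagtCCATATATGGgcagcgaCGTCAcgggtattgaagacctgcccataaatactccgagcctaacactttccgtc

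The letters searched, on both strands, were TGANTCA (the AP-1 element), TGACGTCA (the cyclic AMP response element), TGACG (its core, contained in the full element), TGACATCA (the variant element known from the Jun promoter itself), GCGNGGGCG (the EGR element), TATAAA (the TATA box) and the serum response element, which is named only. Among 32851 promoter windows of the same length, TGACG was found in 17.8%, TATAAA in 12.4%, TGANTCA in 6.75%, GCGNGGGCG in 4.70%, TGACATCA in 2.93%, TGACGTCA in 1.55% and the serum response element in 1.47%. Counted from the transcription start, the Fos window held TGACG at -129 to -125 and -66 to -62 and TATAAA at -33 to -28. The Fosb window held TGACG at -60 to -56 and an EGR element at -50 to -42. Junb held TGACG at -106 to -102, and Jun held TGACATCA at -45 to -38. Egr2 held a serum response element at -72 to -63, TGACG at -111 to -107 and its reverse complement at -55 to -51. The Fosl2 window, not printed, held an EGR element at -79 to -71. Elements further upstream than these 250 bases were not searched, so a promoter may hold elements that its window does not show. These matches describe the letters only, and no binding was measured.

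The first question was how each member stood in laser-treated and in untreated retinas. Both laser groups were compared with the same 3 untreated pools, so the comparisons are not independent of each other. All 10 members were higher in RVO than in untreated eyes (edgeR's quasi-likelihood test, p under 0.01 after Benjamini-Hochberg adjustment), where 27.4% of the 16380 genes tested were called higher. In control laser-treated eyes 9 of the 10 members were higher than in untreated eyes, against 27.2% of 16066 genes tested. The median log2 fold change of the members was 2.68 in RVO and 1.66 in control eyes, and that of all genes tested was 0.01 in both comparisons. Egr2 and Egr3 had too few counts in every untreated pool to pass the filter on low counts without the laser-treated pools. Their direction was therefore fixed in advance, and they are part of these counts and medians. Without that filter the numbers of called members were the same. For every member, the 3 RVO pools lay above the 3 control pools and these above the 3 untreated pools. Of all genes tested, 35.9% had RVO pools wholly above untreated pools, 34.6% had control pools wholly above untreated pools and 26.7% had RVO pools wholly above control pools. An exact two-sided permutation test of 3 against 3 pools cannot give a p below 0.1, and it gave 0.1 for every member in each comparison.

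**Figure D1:**
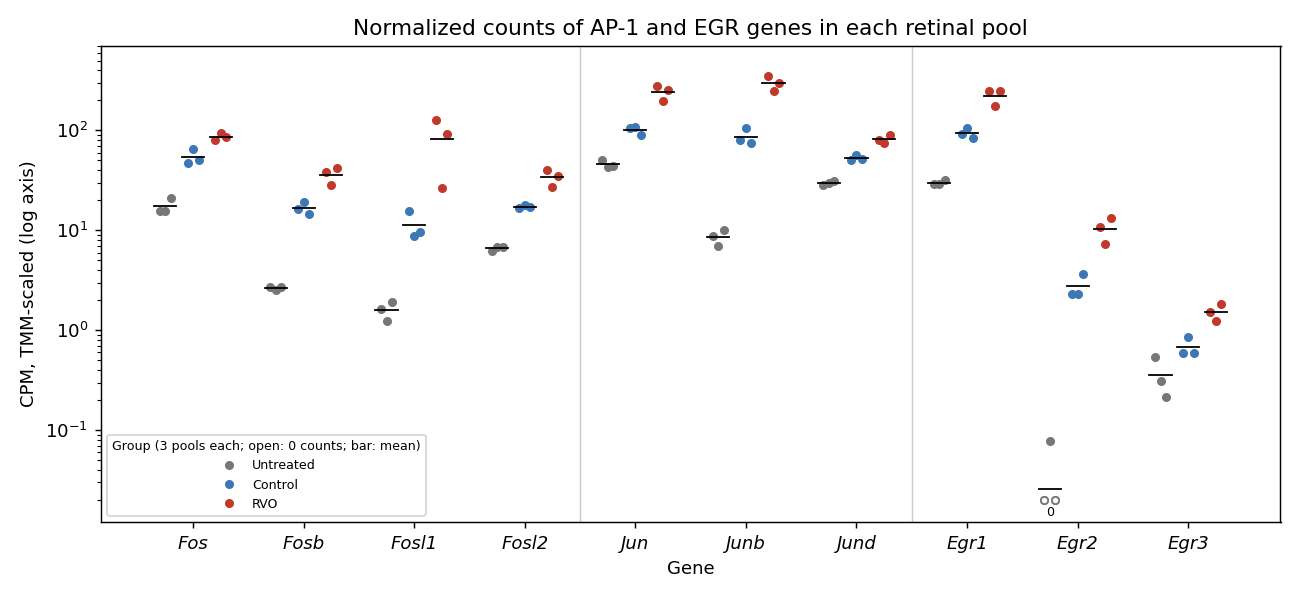
Level of each AP-1 and EGR gene in each retina pool, in CPM on a log axis, with 3 pools per group and a bar at the group mean. Open circles at the bottom stand for pools with 0 counts (Egr2, in 2 untreated pools). For every gene the 3 RVO pools lie above the 3 control pools, which lie above the 3 untreated pools.

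Fos, the founding member of the FOS family, lies on chromosome 12 (GRCm38, 85473890 to 85477273). It stood at 15.5, 15.8 and 21.1 CPM in untreated pools, at 47.3, 65.8 and 50.9 CPM in control pools and at 80.1, 93.2 and 85.8 CPM in RVO pools. The group means were 17.5 ± 3.13, 54.7 ± 9.84 and 86.4 ± 6.57 CPM (SD, n = 3). The 3 groups stood in clear steps without overlap. Fos rose 3.15-fold in control eyes (log2 fold change 1.66, SE 0.14, adjusted p = 8.45e-07) and 5.04-fold in RVO eyes (2.33, SE 0.13, adjusted p = 7.11e-06). RVO replicate 2 had the highest Fos level of all pools, while it was the lowest RVO pool for each of the 9 other members.

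Fosb, whose protein also occurs as a long-lived truncated form, lies on chromosome 7 (19302696 to 19310051). It was low in untreated pools, at 2.72, 2.50 and 2.71 CPM. The control pools stood at 16.2, 19.0 and 14.6 CPM and the RVO pools at 38.0, 28.2 and 42.3 CPM. Untreated pools lay close together (mean 2.65 ± 0.126 CPM), and the increase was 6.33-fold in control eyes (adjusted p = 5.53e-08) and 13.9-fold in RVO eyes (adjusted p = 4.63e-06).

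Fosl1 encodes FRA-1, a FOS protein that lacks the strong transactivation domain of FOS and is itself induced by AP-1. The gene lies on chromosome 19 (5447547 to 5455946). Untreated pools stood at 1.63, 1.25 and 1.93 CPM, control pools at 15.6, 8.84 and 9.54 CPM and RVO pools at 128, 26.3 and 92.9 CPM. The RVO pools differed more from each other in this gene than in any other member (mean 82.5 ± 51.9 CPM, a coefficient of variation of 62.8%). Fosl1 rose 7.10-fold in control eyes (log2 fold change 2.83, SE 0.26, adjusted p = 1.61e-06) and 52.3-fold in RVO eyes (5.71, SE 0.66, adjusted p = 0.000161). Of its exon bases, 57.2% are shared with Ccdc85b on the opposite strand, which had 73 to 1283 counts per pool.

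Fosl2 encodes FRA-2, the other FOS-related antigen, and lies on chromosome 5 (32135801 to 32157842). Its levels were 6.17, 6.80 and 6.79 CPM in untreated, 16.7, 17.9 and 17.3 CPM in control and 40.4, 27.3 and 35.1 CPM in RVO pools. Control pools were nearly alike (17.3 ± 0.625 CPM). The increase was 2.65-fold in control eyes (adjusted p = 3.12e-07) and 5.31-fold in RVO eyes (adjusted p = 1.74e-05).

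Jun encodes the classical transactivating partner of FOS and lies on chromosome 4 (95049034 to 95052222). It stood at 51.1, 43.5 and 43.9 CPM in untreated, 105, 107 and 89.4 CPM in control and 278, 196 and 254 CPM in RVO pools. The lowest RVO pool stood well above the highest control pool. Jun rose 2.21-fold in control eyes (log2 fold change 1.14, SE 0.08, adjusted p = 3.10e-07) and 5.38-fold in RVO eyes (2.43, SE 0.14, adjusted p = 8.58e-06). The antisense gene Junos shares 7.28% of its exon bases and had 10 to 55 counts per pool.

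Junb encodes a JUN protein with weaker transactivation, which can hold back JUN, and lies on chromosome 8 (84974484 to 84978718). Untreated pools stood at 8.72, 7.03 and 9.9996 CPM, control pools at 79.8, 107 and 74.0 CPM and RVO pools at 350.4, 250.4 and 299 CPM. The 3 groups lay far apart, with means of 8.58 ± 1.49, 86.8 ± 17.5 and 300.04 ± 50.0 CPM. Junb rose 10.2-fold in control eyes (log2 fold change 3.35, SE 0.16, adjusted p = 1.79e-08) and 35.7-fold in RVO eyes (5.16, SE 0.18, adjusted p = 1.35e-06). Prdx2, on the opposite strand, shares 7.52% of its exon bases.

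Jund, on the same chromosome (70698949 to 70700616), encodes the JUN protein that resting cells hold in quantity. It stood at 28.3, 29.9 and 30.9 CPM in untreated, 50.1, 56.6 and 51.8 CPM in control and 81.0, 75.0 and 89.0 CPM in RVO pools. Jund had the smallest increase among the called members in both comparisons, 1.80-fold in control eyes (adjusted p = 1.08e-06) and 2.81-fold in RVO eyes (adjusted p = 9.99e-06). The antisense gene Gm11175, which covers 52.6% of its exon bases, had 0 counts in all pools.

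Egr1, the most widely induced EGR factor, lies on chromosome 18 (34859823 to 34864984). Its levels were 28.8, 28.99 and 31.9 CPM in untreated, 92.6, 105 and 83.6 CPM in control and 246, 174 and 250.4 CPM in RVO pools. It rose 3.17-fold in control eyes (log2 fold change 1.66, SE 0.09, adjusted p = 4.09e-08) and 7.64-fold in RVO eyes (2.93, SE 0.15, adjusted p = 5.02e-06). On the fold scale Egr1 thus stood between Jun and Fosb in both comparisons.

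Egr2 encodes KROX20, known for its role in myelination and hindbrain patterning, and lies on chromosome 10 (67535475 to 67542188). It was almost absent from untreated pools, with 0, 1 and 0 counts. Control pools stood at 2.31, 2.32 and 3.68 CPM and RVO pools at 10.7, 7.26 and 13.2 CPM. Because 1 count carries the untreated level, the ratio of the summed counts per summed library size is given with its exact counting interval. It was 106 (95% interval 18.8 to 4221) for control and 394 (70.5 to 15574) for RVO eyes, and these intervals cover counting error only. Both differences passed the test (adjusted p = 1.99e-06 and 1.81e-05).

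Egr3, which acts downstream of neuronal activity and in muscle spindle development, lies on chromosome 14 (70077203 to 70082614). It had few counts in every pool. Untreated pools held 6, 4 and 3 counts, or 0.545, 0.313 and 0.214 CPM. Control pools stood at 0.588, 0.859 and 0.586 CPM and RVO pools at 1.53, 1.23 and 1.85 CPM. It rose 4.47-fold in RVO eyes (log2 fold change 2.16, SE 0.37, adjusted p = 0.00123). In control eyes the log2 fold change was 0.96 (SE 0.43), and the adjusted p of 0.0647 missed the threshold. The untreated pools held 3 to 6 counts each and had a coefficient of variation of 47.5%.

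The next question was whether occluding the veins changed these genes beyond the laser treatment itself. RVO and control eyes came from the same mice, but the labels do not tie single pools to each other. In RVO eyes 7 of the 10 members were higher than in control eyes at adjusted p under 0.01, where 2.7% of 16874 genes tested were called higher. At adjusted p under 0.05 all 10 members were called, against 17.5% of genes. The median log2 fold change was 1.22 for the members and 0.02 for all genes tested.

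Egr2 had the largest fold change of the 7 called members, 3.75-fold (log2 fold change 1.91, SE 0.28, adjusted p = 0.00928), from 2.77 ± 0.789 CPM in control to 10.4 ± 3.00 CPM in RVO eyes. Junb rose 3.46-fold (1.79, SE 0.17) and had the smallest adjusted p of the members, 0.00566. Jun and Egr1 rose by nearly the same factor, 2.42-fold (adjusted p = 0.00668) and 2.39-fold (adjusted p = 0.00746). Fosb rose 2.19-fold (adjusted p = 0.00944), Fosl2 1.99-fold (adjusted p = 0.00928) and Jund 1.55-fold (adjusted p = 0.00879). The 3 other members missed the threshold of 0.01. Their log2 fold changes were 0.66 for Fos (SE 0.13, adjusted p = 0.0130), 2.87 for Fosl1 (SE 0.55, adjusted p = 0.0130) and 1.19 for Egr3 (SE 0.27, adjusted p = 0.0167). Fosl1 had the largest fold change of the members, 7.31-fold, and ranked 12 of all 16874 genes by fold change, but with the widest error.

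**Figure D2:**
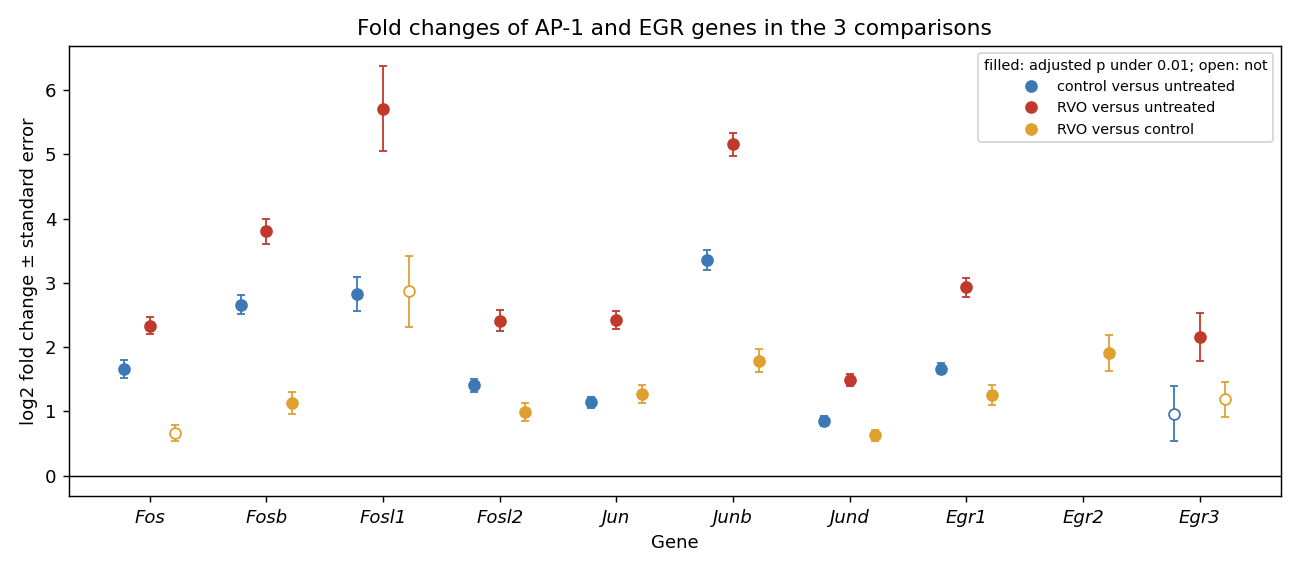
Log2 fold change of each gene in the 3 comparisons, with bars of ± 1 standard error. Filled points had an adjusted p under 0.01 and open points did not. Egr2 is drawn only for RVO versus control, since its fitted fold change against untreated pools rests on 1 count. All values drawn lie above 0.

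The count of called members in this comparison rested on single pools, as did the count of all genes called. Without RVO replicate 2 all 10 members were called, and Fosl1 then had a log2 fold change of 3.27 (adjusted p = 6.58e-06). Leaving out RVO replicate 1 left 1 called member. Leaving out RVO replicate 3, or any of control replicates 1, 2 and 3, left 0 by edgeR at adjusted p under 0.01. In each of these fits all 10 members had a positive log2 fold change and an unadjusted p under 0.05. With all pools, DESeq2 called 9 members. Against untreated eyes, all 10 members were called with and without RVO replicate 2, and Fosl1 had a log2 fold change of 6.15 without it (SE 0.18). A lower RVO replicate 2 was common among induced genes. It was the lowest RVO pool for 65.9% of the 4492 genes called higher in RVO than in untreated eyes, against 19.3% for replicate 1 and 14.8% for replicate 3.

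Levels of different genes were compared per length, as CPM per kilobase of exon (RPKM). In untreated eyes Jund (mean 17.8 RPKM) and Jun (14.5 RPKM) led, followed by Fos (7.42 RPKM), Egr1 (6.67 RPKM) and Junb (3.73 RPKM). Fos and Egr1 overlapped between pools. In control eyes Junb (37.7 RPKM), Jund (31.7 RPKM) and Jun (31.5 RPKM) overlapped at the top. In RVO eyes Junb led at 130 RPKM, above Jun at 76.2 RPKM, with Egr1 (49.8 RPKM) and Jund (48.95 RPKM) overlapping below, followed by Fosl1 (40.6 RPKM) and Fos (36.7 RPKM), whose pools also overlapped. Fosb, Fosl2, Egr2 and Egr3 stayed at low levels per length, between 0.349 RPKM for Egr3 and 5.79 RPKM for Fosb in RVO eyes. Whether reads in bases shared with an opposite-strand gene were counted is not given in the sources used here. Per base that no other gene shares, Jund stood at 37.6, 66.8 and 103 RPKM and Fosl1 at 1.84, 13.0 and 94.9 RPKM in untreated, control and RVO eyes. The places of these 2 genes in the order are therefore uncertain.

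**Figure D3:**
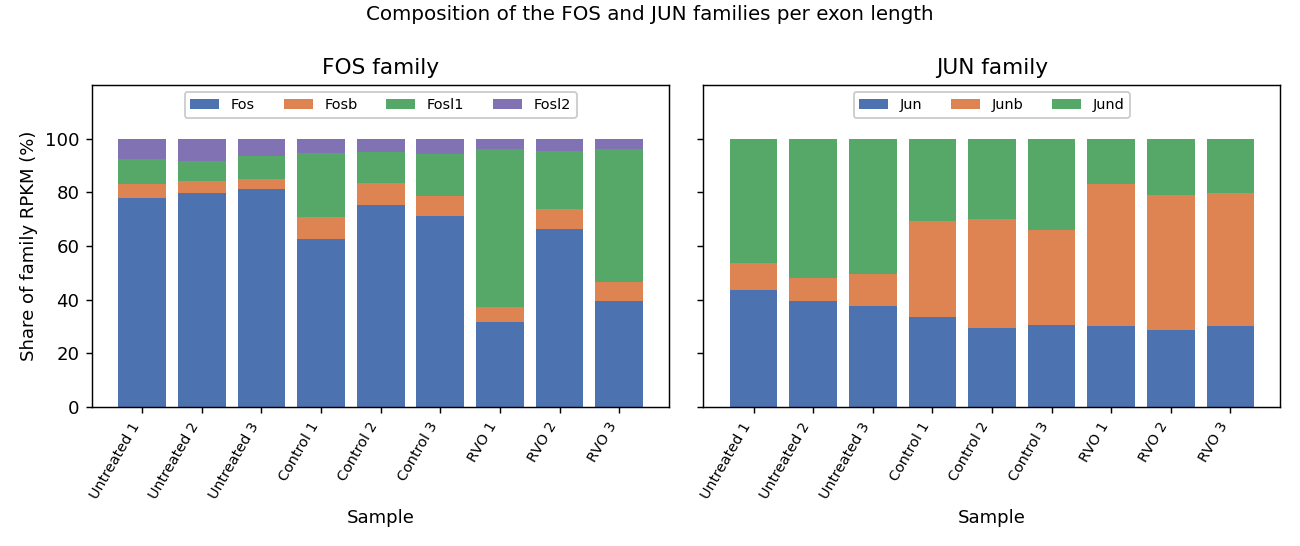
Share of each member in the summed RPKM of the FOS family and of the JUN family, in percent, for each of the 9 pools. Junb takes 8.82 to 11.9% of the JUN family in untreated pools and 49.4 to 52.9% in RVO pools. The Fosl1 share is smaller in RVO replicate 2 than in the other RVO pools.

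The make-up of the families was compared as shares of the summed level per length. In the JUN family, Junb held 10.3% of the summed RPKM in untreated eyes (8.82 to 11.9%), 37.2% in control eyes (35.2 to 40.7%) and 50.9% in RVO eyes (49.4 to 52.9%). Jund held 49.5, 31.5 and 19.3% in the same order, and the groups did not overlap for either gene (exact permutation p = 0.1, the smallest possible). With unshared bases only, Junb held 7.03, 28.6 and 43.1% and Jund 65.7, 47.3 and 31.8%. In the FOS family the RVO pools were unlike each other. Fos held 79.5% in untreated, 69.6% in control and 45.7% in RVO eyes, where single pools ranged from 31.7% to the 66.2% of RVO replicate 2. Fosl1 held 8.46, 17.0 and 43.2%, and its RVO pools ranged from 21.6%, again in replicate 2, to 58.8%. With unshared bases only, Fosl1 held 17.7, 32.0 and 61.9% and Fos 71.5, 57.1 and 30.9%, so which of these genes had the larger share in RVO eyes depends on how shared bases are treated. On all exon bases the exact p for RVO against control eyes was 0.2 for both genes, and their pools overlapped. In the EGR family Egr1 held 98.7, 95.5 and 93.65%.

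The genes most like a member were found by the root mean square difference of centred log2 CPM over all 9 pools, among 17111 genes. Nearest to Fos were Il17rc, a receptor subunit for interleukin 17 (0.0999), Plxnd1, a semaphorin receptor (0.129), and Efemp2, an extracellular matrix protein (0.136). Nearest to Jun were Wwtr1, which encodes the Hippo pathway coactivator TAZ, Gadd45g, a stress gene, and Rcn3, a calcium-binding protein of the endoplasmic reticulum (0.118 each). Serpinh1, a collagen chaperone (0.0890), Nkain1 (0.0901) and Lrrc2 (0.114) stood nearest to Egr1. Among the members, Jun and Fosl2 were closest to each other (0.180).

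Other genes of the same pathways were described from gene lists, to show what moved beside the members. Of all genes tested, 27.4% were called higher and 24.6% lower in RVO eyes against untreated eyes. In control eyes these shares were 27.2% and 25.2%. Between RVO and control eyes 2.7% were called higher and 0.634% lower. Set against untreated eyes, 10 of 16 other immediate-early transcription factors were higher and 1 was lower in RVO eyes (median log2 fold change 1.35). In control eyes 11 were higher and 1 lower (median 0.87), and between RVO and control eyes 6 were higher (median 0.75). Myc, a growth regulator, rose 34.7-fold in RVO and 5.87-fold in control eyes. Csrnp1 rose 16.0-fold and 4.86-fold. Nr4a2, an orphan nuclear receptor of neurons, was the one that fell, from 10.9 ± 0.681 CPM to 6.98 ± 0.962 CPM in control and 4.44 ± 2.004 CPM in RVO eyes.

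Among 18 other immediate-early genes that do not encode transcription factors, 15 were higher and 2 lower in RVO, and 12 higher and 2 lower in control eyes, than in untreated eyes. Gadd45b, a stress sensor, rose 28.8-fold in RVO and 11.001-fold in control eyes, and Ptgs2, the inducible cyclooxygenase, rose 20.4-fold and 6.59-fold. The 2 that fell were Bdnf, a neurotrophin, and Homer1, a postsynaptic scaffold. Bdnf stood at 16.7 ± 1.72 CPM in untreated and 10.2 ± 1.25 CPM in control eyes, and its log2 fold change in RVO eyes was -1.53 (SE 0.16). Markers of retinal neurons were lower in the same groups. All 7 ganglion cell and all 6 amacrine markers and 5 of 6 bipolar markers were called lower in RVO than untreated eyes (median log2 fold changes -1.75, -1.21 and -1.63). In control eyes 6, 4 and 3 of them were called lower (-0.46, -0.34 and -0.28). Of all genes tested, 24.6% were called lower in RVO and 25.2% in control eyes. The part of these cells in the levels of Bdnf, Homer1 and Nr4a2 was not tested. Between RVO and control eyes 6 of the 18 were higher, among them Cyr61 (3.43-fold) and Ier3 (2.64-fold).

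Of the 14 leucine zipper partners of AP-1 that were tested against untreated eyes, 9 were higher and 3 lower in RVO and 8 higher and 2 lower in control eyes. Cebpd rose 44.0-fold in RVO and 17.4-fold in control eyes, and Maff, a small MAF protein, rose 14.05-fold in RVO eyes. Atf3, a stress-induced repressor, rose 4.47-fold in control eyes and stood a further 2.59-fold higher in RVO eyes. Among those that fell were Atf2 and Nrl, the rod-determining factor, at 1887 ± 103 CPM in untreated and 1185 ± 48.3 CPM in RVO eyes.

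The 25 kinases and factors that induce the members moved in both directions, as all genes tested did. In RVO eyes 10 were higher and 6 lower than in untreated eyes, against 27.4% and 24.6% of all genes tested. In control eyes 10 were higher and 8 lower, against 27.2% and 25.2% of all genes tested. The median log2 fold changes were 0.11 in RVO and 0.16 in control eyes. Map3k8, a kinase upstream of ERK, rose 3.52-fold and Elk3, a ternary complex factor, 3.41-fold in RVO eyes. Mapk10, the neuronal JNK, had a log2 fold change of -1.61 in RVO eyes, and Mapk8 had -0.79. Between RVO and control eyes edgeR called 0 of the 25 at adjusted p under 0.01, while DESeq2 called 7 higher and 2 lower. By edgeR 13 of the 25 had an unadjusted p under 0.05, as had 7940 of all 16874 genes tested.

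Feedback inhibitors of the pathway, such as the dual-specificity phosphatases, the Sprouty proteins and the NAB corepressors of EGR, were higher in 10 and lower in 1 of 16 in RVO eyes and higher in 6 and lower in 2 of 16 in control eyes, against untreated eyes. Dusp8 rose 3.38-fold and Spry2 3.33-fold in RVO eyes. Nab1 was lower in both groups (log2 fold changes of -0.89 in RVO and -0.76 in control eyes), while Nab2 rose 1.95-fold in control eyes. Between RVO and control eyes 3 of 17 were higher, among them Spry2 (2.59-fold) and Dusp6 (1.85-fold).

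All 15 known AP-1 targets tested were higher in RVO than in untreated eyes (median log2 fold change 5.26), and all 14 tested were higher in control eyes (2.98). Of the 18 genes on this list, 3 had 0 counts in every untreated pool. Mmp3, a matrix metalloproteinase, was one of them and reached 2.27 ± 0.409 CPM in control and 11.3 ± 2.72 CPM in RVO eyes, at least 142-fold higher than a floor of 3 counts over the untreated group. Sprr1a, known from regenerating neurons, was also at 0 in untreated eyes and reached 7.76 ± 2.98 CPM in RVO eyes, at least 97.8-fold higher. Mmp3 and Sprr1a could pass the count filter only through the laser-treated pools, so their direction was fixed in advance. Other targets with few counts in untreated pools may have entered in the same way, and how many did was not counted. Timp1, Ccl2 and Plaur have low untreated values in the study's own table. At such bounds Mmp3 and Sprr1a still lie above the medians of the list in both comparisons, so the medians could not change. Between RVO and control eyes 7 of 17 were higher, among them Plaur, the urokinase receptor (7.31-fold). Several of these targets, and Junb and Egr2, also stand among the most increased genes that the study selected from these same samples, so the list is not independent evidence of its direction.

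Of 13 known EGR targets tested, 11 rose and 2 fell in RVO eyes against untreated eyes (median log2 fold change 2.03). In control eyes 8 of 12 were higher and 2 lower (1.10). Gdf15, a stress cytokine, rose 38.9-fold and Fgf2, a neuroprotective growth factor, 11.04-fold in RVO eyes. Gdf15 had at most 5 counts in an untreated pool and could pass the count filter only through the laser-treated pools. Nab1, which is also on the list of inhibitors, was among those that fell. F3, the tissue factor gene, and Pdgfa stood 2.68-fold and 1.98-fold above control eyes in RVO eyes, as 2 of the 3 genes called of 13. Between RVO and control eyes DESeq2 called more genes than edgeR in every list, as it did over all genes tested. Over all genes it called 1860 higher and 2177 lower, against 456 and 107 by edgeR. DESeq2 called 10 higher of the other transcription factors (edgeR 6) and 15 higher and 1 lower of the other immediate-early genes (6 and 0). It called 8 higher and 1 lower of the leucine zipper partners (4 and 0) and 8 higher and 1 lower of the feedback inhibitors (3 and 0). Of the AP-1 targets it called 13 higher (7) and of the EGR targets 8 higher (3).

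**Figure D4:**
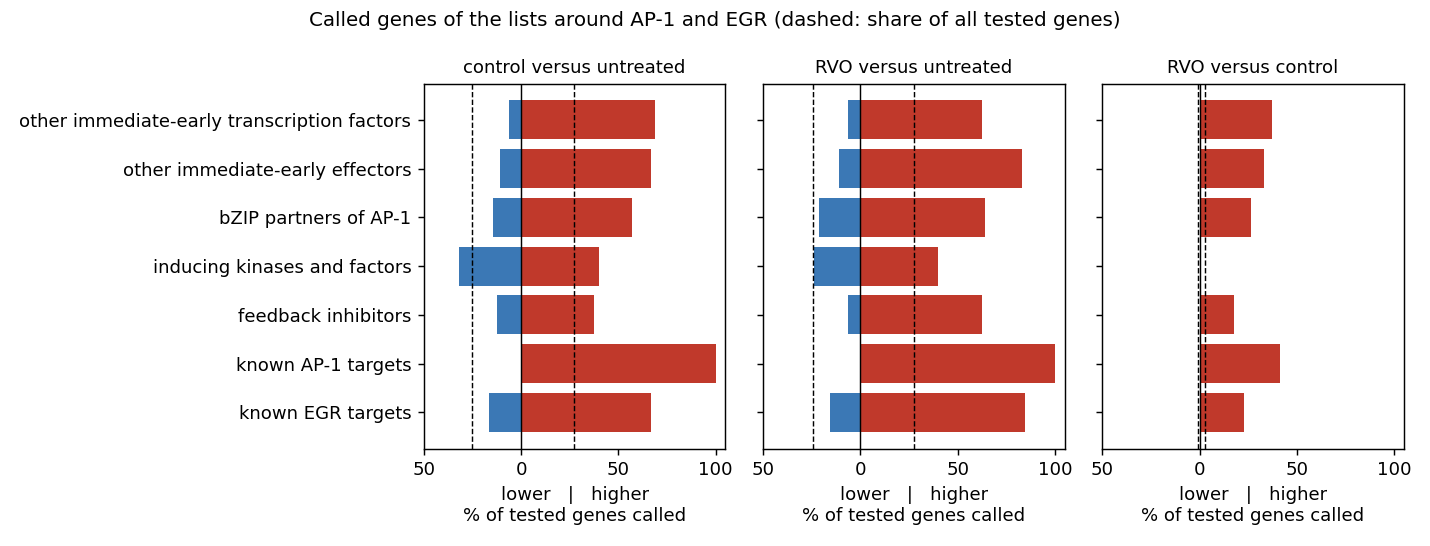
Percent of the tested genes of each pathway list that were called higher (red) and lower (blue) at adjusted p under 0.01, in each of the 3 comparisons. Dashed lines mark the share of all genes tested. The AP-1 targets tested were all called higher against untreated eyes, and the inducing kinases were called in both directions. Of the AP-1 targets tested, 2 had 0 counts in every untreated pool and could not be called lower. Other targets with few counts there may have entered in the same way.

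Markers of other cell types moved between the same groups. Against untreated eyes, 27.4% of all genes tested were called higher and 24.6% lower in RVO eyes. In control eyes these shares were 27.2% and 25.2%. The 9 monocyte and macrophage markers summed to 17.0 to 21.9 CPM in untreated, 54.4 to 74.6 CPM in control and 123 to 149 CPM in RVO pools, and 7 of 9 were called higher in RVO than in untreated eyes. The 8 neutrophil markers summed to 0.156 to 1.07, 6.15 to 19.0 and 35.6 to 87.0 CPM, with 3 of the 8 at 0 in every untreated pool. The sum of the Mueller cell markers went the other way. It was 4397 to 4644 CPM in untreated, 2586 to 3237 CPM in control and 1622 to 2313 CPM in RVO pools. Of the 8 Mueller markers, 5 were called lower in each laser group against untreated eyes, and 1 was called higher in control eyes. Microglial markers summed to 103 to 159 CPM in untreated, 50.9 to 60.8 CPM in control and 31.5 to 52.6 CPM in RVO pools, with 5 of 7 called lower in each laser group against untreated eyes. The 8 lens markers summed to 2.07 to 13.6 CPM in untreated, 121 to 1612 CPM in control and 94.8 to 3860 CPM in RVO pools. The sum of the endothelial markers was highest in control pools, at 315 to 351 CPM. It was 162 to 166 CPM in untreated and 156 to 271 CPM in RVO pools. Against untreated eyes, all 7 were called higher in control eyes (median log2 fold change 1.12). In RVO eyes 4 of the 7 were called higher and 0 lower (0.63). The part of these cell types in the levels of the AP-1 and EGR genes was not tested.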

How the data were processed

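Raw counts per gene from 9 retina RNA libraries were used as deposited. The authors aligned single reads with STAR 2.5.2b and counted them with featureCounts of Subread 1.5.1. The kit marked strand, but the strand setting and the treatment of multiply mapped reads are not given in the sources used here. The 92 spike-in entries held 0 counts and were left out. Low counts were filtered with filterByExpr, libraries were scaled by TMM, and each pair of groups was fitted on its own with the edgeR 4.0.16 quasi-likelihood test in R 4.3.3. Adjustment followed Benjamini-Hochberg over all genes tested, with calls under 0.01. DESeq2 1.42.0 (Wald test), other scalings, no filter, 1 fit of all samples, a replicate block and leaving out each pool were alternatives. The fits were first tested on simulated counts. CPM used the TMM-scaled library over all 9 samples, and RPKM the union of GENCODE exons (GRCm38). P-values measure the spread between 3 pools per group, and replicates differed by more than counting noise. From each list, the 2 most increased and the 2 most decreased called genes with at least 1 CPM in a group could be named, together with list genes near a member in likeness. The members and gene lists were chosen with earlier results of these data known. Some genes that this rule names are not reported here.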

Additional observations from a re-analysis of the deposited data

How the results depend on the processing

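Against untreated eyes, 10 members were called in RVO and 9 in control eyes under every alternative. Egr3 failed the filter in the second comparison when a control pool was left out. Between RVO and control eyes, 7 members were called with library sizes alone or DESeq2 size factors, 9 by DESeq2 or without a filter, 10 with 1 fit of all samples or at 0.05, and 0 with a replicate block (adjusted p 0.0314 to 0.0476). Leaving out each pool in turn gave 0 to 10 called members. Pools sharing a number did not deviate together (correlations -0.142 to 0.0629 between RVO and control). Between pools of unlike number the correlations were -0.180 to 0.208, the highest for RVO 2 with control 1. Whether equal numbers mean the same mice is not given in the sources used here, so which pools belong together stays unknown. No log2 fold change of a member reversed. Over all genes, 456 were called higher and 107 lower between RVO and control eyes, against 1860 and 2177 by DESeq2, 2942 and 3315 without RVO replicate 2, and 0 with the block (7227 at an unadjusted p under 0.05). The higher share of calls was 81.0% by edgeR and 46.1% by DESeq2. With library sizes alone the median of all genes shifted to 0.22 (log2) in RVO and 0.19 in control against untreated eyes, and the higher share of calls went from 52.7 to 68.5% and from 51.9 to 70.4%. The cause of these changes was not tested. Egr3 (3 to 6 counts) and Egr2 (0 or 1 count) rested on very few counts in untreated pools.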
